A study of Mus musculus with 6 samples.

Results

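The genes of glucose breakdown and of the cell's response to low oxygen were followed in bone marrow-derived macrophages (BMDMs) of WT mice and of mice with a lineage-limited deletion of Scd2, a stearoyl-CoA desaturase that puts a double bond into saturated fatty acids. The set holds 36 genes of the 40481 in the count table, chosen by symbol. In it are 24 glycolytic members (glucose and lactate carriers, the enzymes from hexokinase to lactate dehydrogenase, and 3 regulators of flux) and 12 hypoxia members that are no part of glycolysis (oxygen sensing and targets of the hypoxia-inducible factors, HIFs). RNA sequencing was done on 6 libraries of unstimulated BMDMs, 3 labelled WT and 3 labelled SCD2KO with the genotype Scd2-KO, here called Scd2-m/-m. The Scd2-m/-m mice carried floxed Scd2 alleles and a lysozyme M-Cre transgene, which is active in myelomonocytic cells and so limits the deletion to that lineage. The sources used here do not say whether the WT mice carried floxed alleles or the Cre transgene. All cells were grown from marrow for 5 to 6 days in medium conditioned by CMG cells, a source of macrophage growth factor, and the study used male and female mice aged 2 to 5 months, with no age or sex given for a library. Nothing states that the replicates came from separate animals, so the p-values measure the spread between these samples, which may be technical.

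Glycolysis splits glucose into pyruvate through a fixed chain of enzymes, and several steps can be carried by any of a few isozymes encoded by separate genes. Macrophages draw strongly on this route when they are activated. HIF-1 and HIF-2 are transcription factors whose alpha subunits are hydroxylated by the EGLN prolyl hydroxylases when oxygen is present, bound by the VHL protein and degraded, so that their level is set largely at the protein. When oxygen falls they switch on most glycolytic genes together with genes of mitophagy, collagen modification and their own negative feedback.

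HIF binds a short core written ACGTG or GCGTG. Promoters from RefSeq on GRCm38.p6, each 300 bases from 250 before to 50 after a transcript's start, were found for 33 of the 36 genes (46 promoters), with none for Bnip3l, Epas1 and Ndrg1. On either strand ACGTG was present in 26 of the 46 promoters (56.52%), against 19.62% of all 32851 promoters of the table, and GCGTG in 26 (56.52%) against 32.39%. The 6-letter CACGTG, an E-box that contains ACGTG, was present in 6 (13.04%) against 7.15%. By role, ACGTG was in 8 of the 9 hypoxia promoters and in 18 of the 37 glycolytic ones. These are matches of letters and not sites shown to be bound.

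The promoters of the genes on which the comparison below turns are shown 5′ to 3′ on the gene's strand, with every match to ACGTG or to GCGTG on either strand in capitals, a match on the other strand being spelled as its reverse complement. Egln3 and Hk2 had the lowest fold changes of the set, Slc2a6 and Hk3 the highest, and Ldha stands for the abundant enzymes that did not pass the test.
Egln3, chr12:54203825-54204124, minus strand: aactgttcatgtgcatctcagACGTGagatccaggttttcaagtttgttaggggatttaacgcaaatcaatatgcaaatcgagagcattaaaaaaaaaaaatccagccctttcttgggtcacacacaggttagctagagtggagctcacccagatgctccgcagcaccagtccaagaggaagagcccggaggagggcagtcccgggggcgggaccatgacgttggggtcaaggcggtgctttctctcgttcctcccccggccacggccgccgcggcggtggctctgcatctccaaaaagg
Hk2, chr6:82774405-82774704, minus strand: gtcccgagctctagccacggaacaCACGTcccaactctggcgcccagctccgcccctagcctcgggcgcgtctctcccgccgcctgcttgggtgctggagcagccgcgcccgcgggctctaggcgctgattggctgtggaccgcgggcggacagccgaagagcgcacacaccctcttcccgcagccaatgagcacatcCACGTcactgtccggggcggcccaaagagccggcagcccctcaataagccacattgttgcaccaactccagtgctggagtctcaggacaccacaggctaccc
Slc2a6, chr2:27027949-27028248, minus strand: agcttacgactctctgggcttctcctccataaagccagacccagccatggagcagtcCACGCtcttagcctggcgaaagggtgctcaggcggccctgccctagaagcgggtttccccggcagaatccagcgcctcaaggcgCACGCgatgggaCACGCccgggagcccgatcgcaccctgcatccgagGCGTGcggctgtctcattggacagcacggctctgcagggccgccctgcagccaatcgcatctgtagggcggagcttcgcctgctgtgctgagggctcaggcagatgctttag
Hk3, chr13:55021336-55021635, minus strand: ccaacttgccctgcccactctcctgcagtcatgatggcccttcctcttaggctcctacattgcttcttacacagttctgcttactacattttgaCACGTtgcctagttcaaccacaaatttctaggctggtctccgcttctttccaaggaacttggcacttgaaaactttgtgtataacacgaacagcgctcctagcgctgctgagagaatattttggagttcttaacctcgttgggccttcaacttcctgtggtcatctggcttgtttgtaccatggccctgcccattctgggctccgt
Ldha, chr7:46845554-46845853, plus strand: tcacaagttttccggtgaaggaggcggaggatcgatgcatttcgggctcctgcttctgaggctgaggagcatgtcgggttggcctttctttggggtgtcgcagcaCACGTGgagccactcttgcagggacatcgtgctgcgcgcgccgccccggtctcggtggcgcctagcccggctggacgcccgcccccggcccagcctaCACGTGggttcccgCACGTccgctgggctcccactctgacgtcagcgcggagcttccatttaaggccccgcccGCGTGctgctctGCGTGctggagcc

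The Ldha promoter shown held the E-box CACGTG beginning at bases -145 and -48 and a further CACGT at -34, counted from the transcript's start, and a second Ldha promoter (chr7:46846832-46847131) held no ACGTG and 2 matches to GCGTG. Hk2 held CACGT at -226 and -52, Egln3 held ACGTG at -229, Hk3 held CACGT at -156, and Slc2a6 held no ACGTG but 4 matches to GCGTG. Of the promoters of genes lower in Scd2-m/-m, ACGTG was in 8 of 10 (80%). It was in 1 of 4 (25%) for genes that were higher and in 17 of 32 (53.12%) for those that did not pass the test. GCGTG was in 6 of 10 (60%), 2 of 4 (50%) and 18 of 32 (56.25%) of the same groups, so the groups stood close together for this core. These counts are small and carry no test, and genes with several promoters enter several times.

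The libraries held from 46285176 to 57629638 counts each, with mitochondrially encoded genes taking 2.02 to 2.54%. Levels below are CPM (counts scaled by library size with TMM factors), and CPM per kb of exonic length where different genes are compared. Scd2 itself, the deleted gene, was at 66.9, 77.8 and 62.7 CPM in WT replicates 1, 2 and 3 and at 59.5, 38.0 and 39.8 CPM in the Scd2-m/-m replicates. The Scd2-m/-m libraries were all below the WT libraries, at 66.2% of the WT mean, but replicate 1 lay close to the WT range and the log2 fold change of -0.59 ± 0.19 (SE) did not pass edgeR's test (FDR = 0.10). The floxed exons are not named in the sources used here, so counts over the whole gene check the labels only in part. By quantitative PCR, a different measure, the study reported a larger drop of Scd2 transcript in Scd2-m/-m macrophages. The macrophage markers were present at high level in every library (summed level 38578 to 39395 CPM in WT and 22354 to 22840 CPM in Scd2-m/-m), of which Lyz2 held 22099 to 23228 CPM in WT and 8661 to 9374 CPM in Scd2-m/-m. Lyz2 is the gene into which lysozyme M-Cre is commonly inserted.

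All 36 genes had enough counts to be tested. Across 14778 genes tested with edgeR's quasi-likelihood test and Benjamini-Hochberg adjustment (called at FDR below 0.05), 17.5% were called, 9.65% higher and 7.84% lower in Scd2-m/-m. Of the 36 genes 13 were called (36.1%), 5 higher and 8 lower. The genes were chosen with earlier results of these data known, and their share was not tested against that of all genes. The study's second threshold, an absolute log2 fold change above 2, was passed together with the FDR by 0.663% of all genes and by 0 of the 36 in edgeR, DESeq2 and limma-voom. The median log2 fold change of the 36 was -0.05, against 0.0039 over all genes. The WT and Scd2-m/-m libraries did not overlap for 15 of the 36, against 34.9% of all genes. Among the 24 glycolytic members 9 were called, 4 higher and 5 lower (median -0.01; 3 lower without WT replicate 2, Scd2-m/-m replicate 2 or Scd2-m/-m replicate 3), and among the 12 hypoxia members 4 were called, 1 higher and 3 lower (median -0.06). Calls of both directions thus stood side by side within the glycolytic members, among them isozymes of the same step. Markers of dividing cells (10 of 10) and of monocytes and progenitors (6 of 8) were higher in the same comparison, with values given last, and their part in these calls was not tested.

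**Figure D1:**
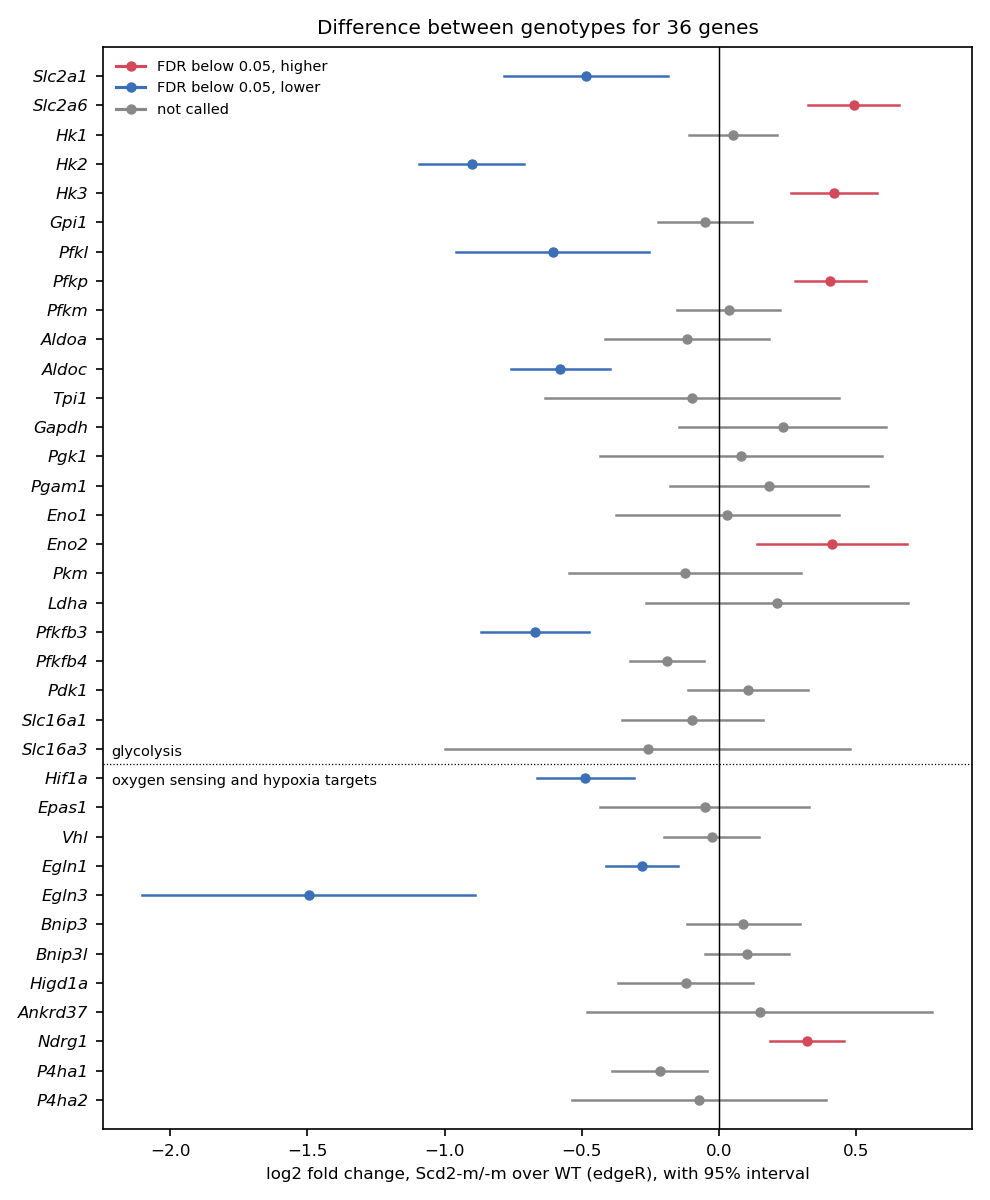
Log2 fold change of each of the 36 genes in Scd2-m/-m over WT from edgeR (x axis) with its 95% interval, 3 libraries per genotype, called genes in colour and others in grey. The 24 glycolytic genes stand above the dotted line and the 12 hypoxia genes below it, and the 5 higher and 8 lower calls are mixed among uncalled genes, of which all but Pfkfb4 and P4ha1 have intervals that include 0.

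At the entry of the route, the glucose transporters went opposite ways. Slc2a1, encoding the widely expressed carrier GLUT1, was at 55.6, 43.5 and 38.4 CPM in the WT replicates and at 35.8, 32.8 and 29.5 CPM in the Scd2-m/-m replicates. The groups did not overlap, though WT replicate 3 and Scd2-m/-m replicate 1 were near each other. Slc2a1 fell by 0.49 ± 0.13 on the log2 scale (SE, FDR = 0.0346), a call that did not survive leaving out WT replicate 2 (FDR = 0.0674) or any 1 of the Scd2-m/-m libraries (FDR = 0.0612, 0.10 and 0.165 without replicates 1, 2 and 3). Slc2a6, encoding GLUT6, a carrier found on lysosomes in macrophages, was at 116, 108 and 125 CPM in WT and at 179, 165 and 146 CPM in Scd2-m/-m. Every Scd2-m/-m library was above every WT library, and Slc2a6 (chr2:27021363-27027998) rose by 0.49 ± 0.08 (FDR = 0.000595). Per kb of exon Slc2a6 was the more abundant carrier, with means of 36.2 and 50.8 CPM per kb in WT and Scd2-m/-m against 13.1 and 9.33 for Slc2a1.

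Hexokinase, which phosphorylates glucose and traps it in the cell, had isozymes called in opposite directions. Hk2, the inducible form that docks on mitochondria (chr6:82725025-82774454), was at 90.8, 75.9 and 71.0 CPM in WT and at 44.9, 43.3 and 39.1 CPM in Scd2-m/-m. The Scd2-m/-m libraries were close together and far below WT, at 53.6% of its mean, and Hk2 fell by 0.90 ± 0.09 on the log2 scale (FDR = 1.71e-05). Hk3, a form prominent in myeloid cells (chr13:55005985-55021385), was nearly constant in WT at 173, 172 and 176 CPM and stood at 250, 243 and 204 CPM in Scd2-m/-m. Replicate 3 was the lowest of these but still above all WT libraries, and Hk3 rose by 0.42 ± 0.07 (FDR = 0.00126). Hk1, the constitutive form, ranged over 138 to 157 CPM in WT and 137 to 165 CPM in Scd2-m/-m, a log2 fold change of 0.05 (95% interval -0.11 to 0.21) that did not pass the test.

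On the per-length scale Hk3 made up 58.3, 61.4 and 63.0% of the summed hexokinase transcript in WT and 71.7, 72.5 and 71.1% in Scd2-m/-m. The share of Hk2 was 18.9, 16.7 and 15.7% in WT and 7.95, 7.98 and 8.40% in Scd2-m/-m. The rest, Hk1, had means of 22.0 ± 0.783% and 20.2 ± 0.537% (SD, n = 3 each). The 3 shares are parts of 1 total, so they are not separate results. No overlap was seen between genotypes for any of them, but for Hk1 the libraries overlapped when counts were not scaled by length.

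Phosphofructokinase, the committed step of glycolysis, is a tetramer built from liver (Pfkl), platelet (Pfkp) and muscle (Pfkm) subunits. Pfkl was at 114, 95.6 and 82.8 CPM in WT and at 74.3, 64.0 and 53.6 CPM in Scd2-m/-m, with replicate 1 the highest and replicate 3 the lowest in both genotypes and no overlap between them. Pfkl fell by 0.61 ± 0.15 on the log2 scale (FDR = 0.0321), and lost this call without WT replicate 2 (FDR = 0.0827), Scd2-m/-m replicate 2 (FDR = 0.0857) or Scd2-m/-m replicate 3 (FDR = 0.0767). Pfkp was at 51.9, 52.9 and 49.3 CPM in WT and at 70.1, 66.2 and 67.9 CPM in Scd2-m/-m. Both groups were tight and well apart, and Pfkp rose by 0.41 ± 0.06 (FDR = 0.000372). It shares 748 exonic bases with Pitrm1 on the opposite strand, and strand use in the counting is not given, so some of its reads could belong to Pitrm1, whose own log2 fold change was 0.04 (FDR = 0.673). Pfkm, at 20.7 to 25.1 CPM in WT and 21.4 to 24.9 CPM in Scd2-m/-m, had a log2 fold change of 0.04 (95% interval -0.15 to 0.22).

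As a share of the phosphofructokinase transcript per length, Pfkl was 62.8, 55.5 and 55.1% in WT and 46.8, 45.8 and 40.4% in Scd2-m/-m, while Pfkp was 14.3, 15.3 and 16.4% against 22.0, 23.6 and 25.5%. Pfkm had means of 26.8 ± 3.45% and 32.0 ± 1.86% (SD, n = 3 each). Per length Pfkl was the largest of the 3 in every library, but without length scaling Pfkp (mean 44.1%) exceeded Pfkl (41.1%) in Scd2-m/-m. Of 12 such isozyme shares in 8 sets, 9 did not overlap between genotypes. The 3 hexokinase shares are parts of a whole, as are the 3 of phosphofructokinase, so the 9 are not separate results. Isozymes outside the set, such as Pfkfb2 and Egln2, were not in the sums. Each of these 9 had an exact permutation p of 0.1 (two-sided), the smallest that 3 against 3 libraries allow, and 0.133 after Benjamini-Hochberg adjustment over the 12, so the design could not reach 0.05. Besides Hk1, Hk2, Hk3 and the phosphofructokinase subunits they were Aldoc, Pfkfb4 and Egln3, and without length scaling 7 of the 12 still did not overlap, Hk1 and Pfkm being those that then did.

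**Figure D2:**
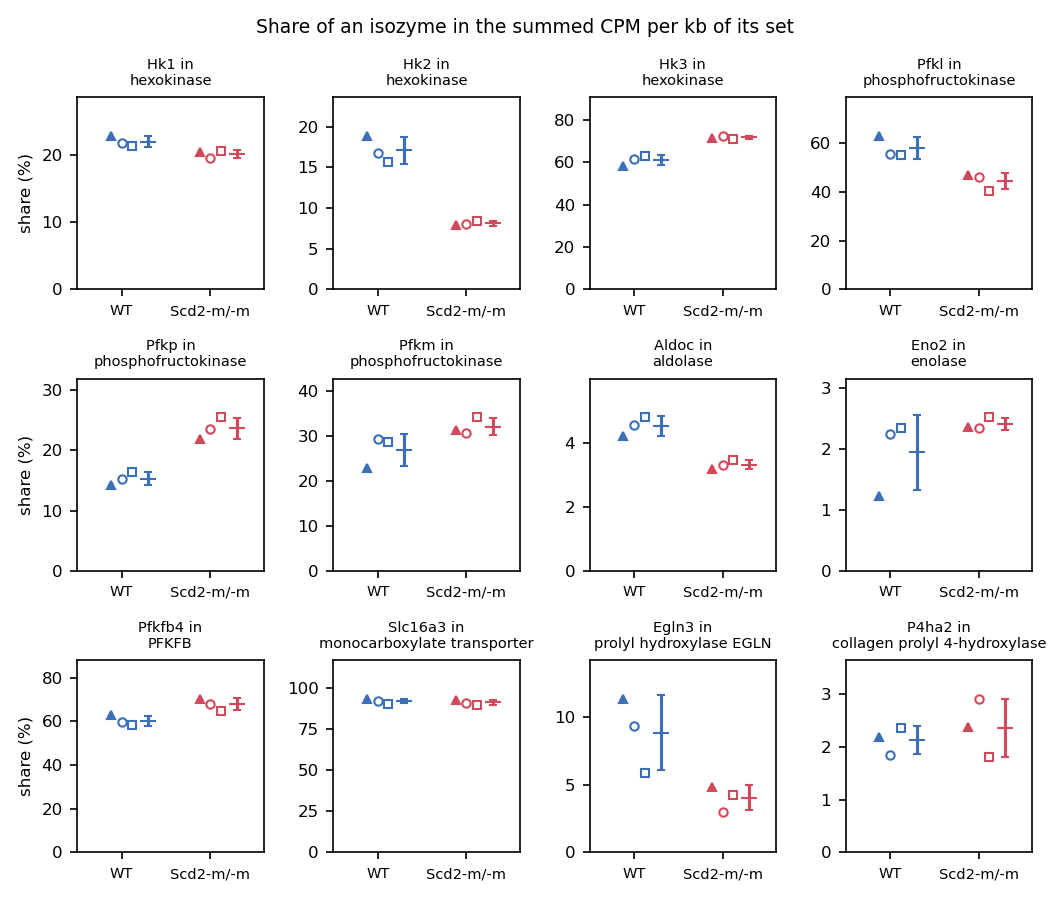
Share of 12 isozymes in the summed CPM per kb of their set (y axis, percent, from 0) in each library, WT in blue and Scd2-m/-m in red, with triangles, circles and squares for replicates 1, 2 and 3 and bars for the mean ± SD of 3 libraries. Hk2 (17.1 to 8.11%) and Pfkl (57.8 to 44.3%) were lower and Hk3 (60.9 to 71.7%) and Pfkp (15.3 to 23.7%) higher in Scd2-m/-m, while Eno2, Slc16a3 and P4ha2 overlapped.

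The bifunctional PFKFB enzymes make and break a sugar bisphosphate that is a strong activator of phosphofructokinase. Pfkfb3, the member with the highest kinase activity (chr2:11471433-11554077), was at 64.1, 76.3 and 82.0 CPM in WT and at 44.2, 44.2 and 51.5 CPM in Scd2-m/-m. All Scd2-m/-m libraries were below all WT libraries, and in both genotypes replicate 3 was the highest, unlike the abundant enzymes of the chain. Pfkfb3 fell by 0.67 ± 0.09 on the log2 scale (FDR = 0.000253). Pfkfb4 was at 69.9, 73.4 and 73.5 CPM in WT and at 67.8, 61.1 and 61.5 CPM in Scd2-m/-m. These did not overlap either, but the log2 fold change of -0.19 (95% interval -0.32 to -0.05) did not pass in edgeR (FDR = 0.0536). The call was borderline and passed in 6 of 17 alternative settings. Among these were DESeq2 (FDR = 0.0461) and edgeR with the replicate number as a block.

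Aldolase and enolase each have a main isozyme that did not pass the test and a minor isozyme that did. Aldoc was at 114, 102 and 99.7 CPM in WT and at 79.1, 70.4 and 62.4 CPM in Scd2-m/-m, where every library was below WT. It fell by 0.58 ± 0.08 on the log2 scale (FDR = 0.000341), and its share of the aldolase transcript per length went from 4.52 ± 0.301% to 3.32 ± 0.141% (SD, n = 3 each). Aldoa, the remainder, was at 2326, 1906 and 1766 CPM in WT and 2148, 1832 and 1552 CPM in Scd2-m/-m, with overlapping groups and a log2 fold change of -0.12 (95% interval -0.42 to 0.18). Eno2, best known from neurons, was a minor transcript at 6.69, 9.65 and 8.36 CPM in WT and 12.1, 10.6 and 10.1 CPM in Scd2-m/-m. It rose by 0.41 ± 0.13 (FDR = 0.0388), but the call was lost without WT replicate 1 (FDR = 0.129), WT replicate 3 (FDR = 0.0661), Scd2-m/-m replicate 1 (FDR = 0.123) or Scd2-m/-m replicate 2 (FDR = 0.101).

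Phosphofructokinase, whose Pfkl was called lower, is described above and left out here. The rest of the chain from glucose phosphate isomerase to lactate dehydrogenase is carried by 9 main isozymes, and none of them passed edgeR's test. Gpi1, Aldoa, Tpi1, Gapdh, Pgk1, Pgam1, Eno1, Pkm and Ldha gave 0 calls in edgeR, in DESeq2 and in limma-voom, 0 with an unadjusted p under 0.05 in any of these and 0 without overlap, with a median log2 fold change of 0.03. Gapdh, which was among the reference genes of the study's quantitative PCR, was at 1585, 1251 and 1061 CPM in WT and 1729, 1542 and 1308 CPM in Scd2-m/-m. Ldha, which turns pyruvate into lactate, was at 529, 406 and 332 CPM in WT and 555, 493 and 419 CPM in Scd2-m/-m. Pkm, which makes the pyruvate, was at 3939, 2929 and 2577 CPM in WT and 3293, 2932 and 2443 CPM in Scd2-m/-m. In each of these genes replicate 1 was the highest and replicate 3 the lowest of its genotype, and for all 9 the SD of the WT libraries exceeded the difference between the genotype means.

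Replicate 1 was the highest library in both genotypes for 9 of these 9 genes and for 21 of all 36, 16 glycolytic and 5 hypoxia genes, against 16.2% of all genes tested. The numbers were given by the labels and no record ties same-numbered libraries to each other. The intervals of these genes were wide. The log2 fold change was 0.23 for Gapdh (95% interval -0.14 to 0.61), 0.21 for Ldha (-0.27 to 0.69), 0.18 for Pgam1 (-0.18 to 0.55), -0.12 for Pkm (-0.55 to 0.30) and -0.10 for Tpi1 (-0.63 to 0.44), each including 0 in edgeR. Without WT replicate 1 the higher values of Gapdh (0.40, FDR = 0.0245), Pgam1 (0.35, FDR = 0.0157) and Ldha (0.41, FDR = 0.0436) passed the test, as they did with limma-voom and quality weights for the libraries (FDR = 0.0244, 0.0227 and 0.0455). Eno1 (0.03, 95% interval -0.38 to 0.44), Pgk1 (0.08, -0.43 to 0.59) and Gpi1 (-0.05, -0.22 to 0.12) were not called under any alternative. Entries named as pseudogenes or retrogenes of these enzymes held at most 3.09% of the counts of their parent (Pgam1).

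**Figure D3:**
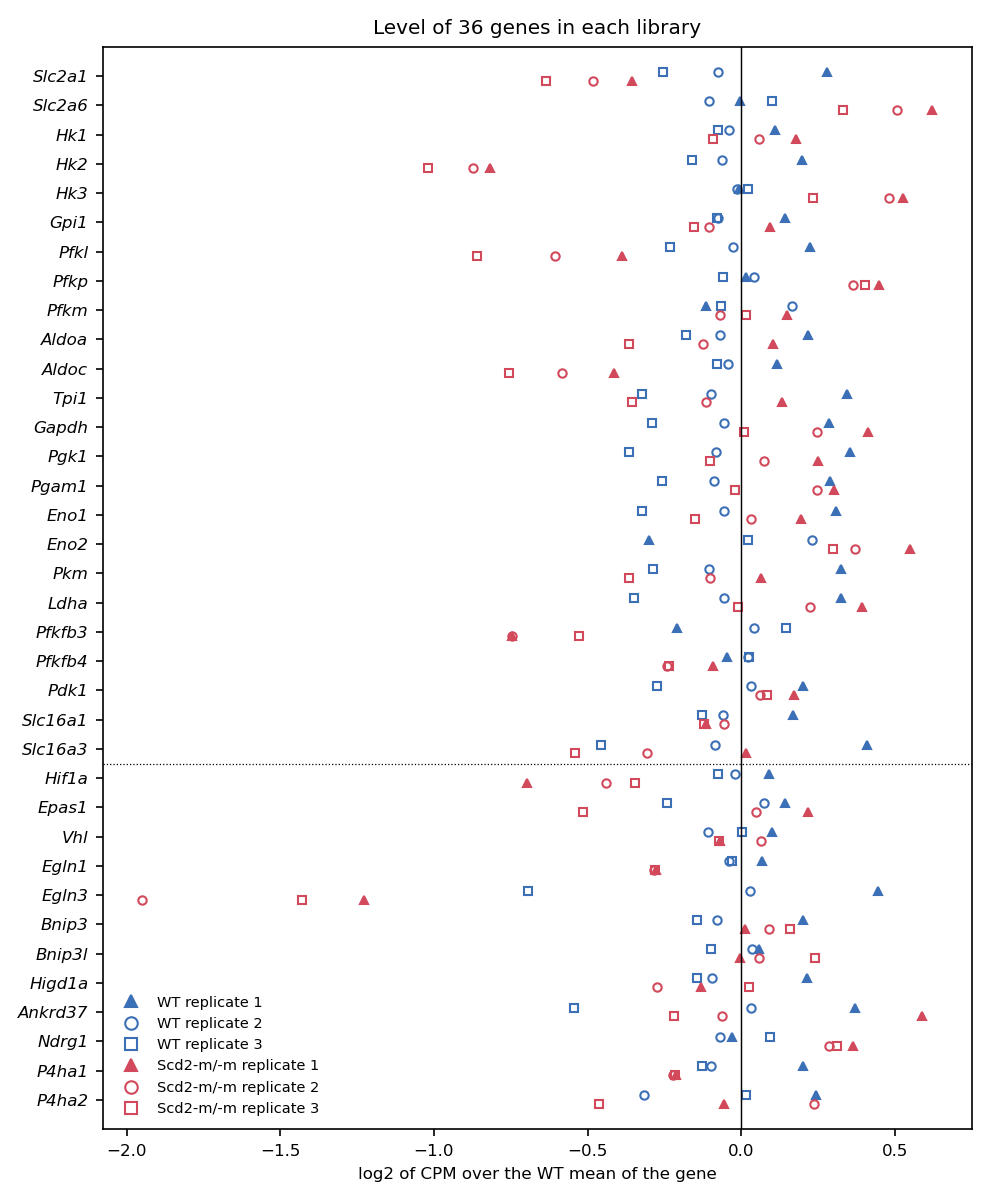
Level of each of the 36 genes in each library as log2 of CPM over the gene's WT mean (x axis), WT in blue and Scd2-m/-m in red, with filled triangles for replicate 1 and open circles and squares for replicates 2 and 3. For the abundant enzymes (Aldoa, Tpi1 to Eno1, Pkm, Ldha) the triangle of each genotype lies farthest right and the genotypes overlap, whereas Hk2, Pfkfb3, Aldoc and Egln3 lie apart to the left.

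Per kb of exon in WT, Aldoa (687 CPM per kb) and Pkm (630) stood highest, followed by Gapdh (314), Ldha (128), Tpi1 (125), Pgk1 (109), Eno1 (92.7), Gpi1 (63.3), Pgam1 (60.5) and Hk3 (47.2). Neighbours in this order such as Aldoa and Pkm, or Ldha, Tpi1 and Pgk1, differed by less than their spread over libraries. On this per-length scale phosphofructokinase had the lowest total of any step, at 25.1 ± 2.37 CPM per kb in WT and 21.5 ± 2.03 in Scd2-m/-m (SD, n = 3 each). That place depended on the length scaling. Without it, Pfkl, Pfkp and Pfkm (WT means 97.3, 51.4 and 22.4 CPM) together exceeded Pgam1 (120 CPM). The same held in Scd2-m/-m (64.0, 68.1 and 22.9 CPM against 136 CPM). When isozymes were summed, 1 of the 12 steps from uptake to lactate did not overlap, namely glucose transport, at 51.9, 46 and 49.7 CPM per kb in WT and 65.9, 60.7 and 53.9 in Scd2-m/-m. This total summed only Slc2a6, which was higher, and Slc2a1, which was lower. Glucose carriers outside the set were not in it, so it does not measure glucose uptake. The hexokinase total was 77.5 ± 2.64 CPM per kb in WT and 87.9 ± 8.79 in Scd2-m/-m, with overlapping libraries. Together the 19 genes of these steps took 1.10, 0.882 and 0.782% of all counts in WT and 1.06, 0.943 and 0.799% in Scd2-m/-m. The means, 0.922 ± 0.163% and 0.933 ± 0.128% (SD, n = 3 each), differed by less than the spread between libraries.

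**Figure D4:**
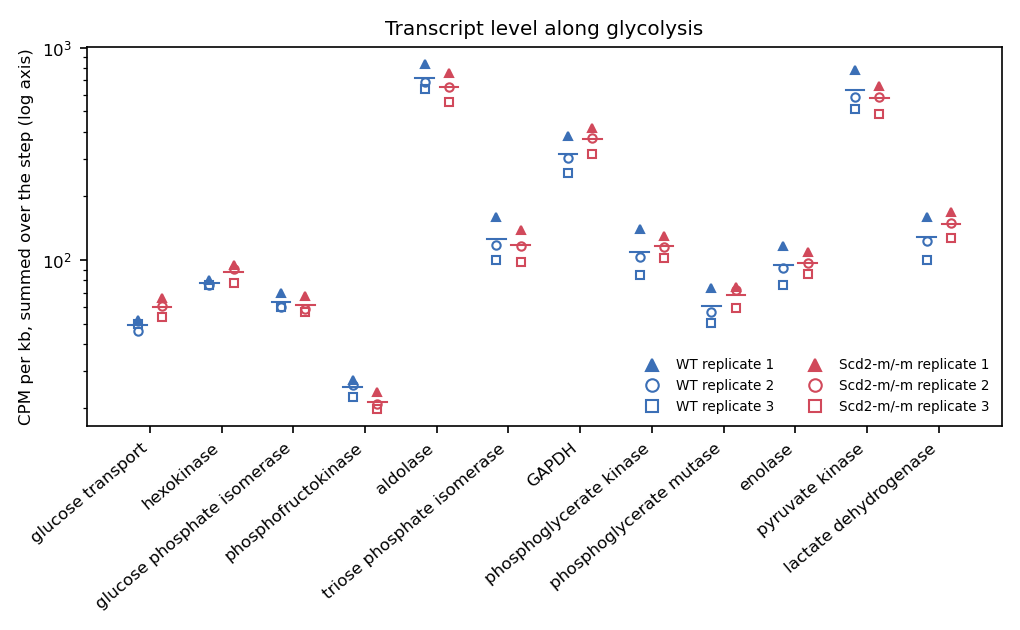
Summed CPM per kb (log axis) of the genes of each of 12 glycolytic steps, in the order of the pathway, for each library, with horizontal bars for the mean of 3 libraries, WT in blue and Scd2-m/-m in red. Per kb, phosphofructokinase is the lowest step and aldolase and pyruvate kinase the highest in both genotypes. Without length scaling phosphofructokinase is not the lowest. The libraries overlap at every step but glucose transport (49.2 against 60.1), which sums only Slc2a1 (lower) and Slc2a6 (higher).

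The outlets of the route did not pass the test. Pdk1, which blocks pyruvate entry into the citric acid cycle by phosphorylating pyruvate dehydrogenase, ranged over 44.2 to 61.4 CPM in WT and 55.7 to 60.2 CPM in Scd2-m/-m (log2 fold change 0.11, 95% interval -0.11 to 0.32). Slc16a3, encoding the lactate exporter MCT4, was at 115, 81.2 and 62.9 CPM in WT and 87.1, 69.7 and 59.3 CPM in Scd2-m/-m. Its replicates spread widely, and the interval of its log2 fold change ran from -0.997 to 0.478. Slc16a1, encoding MCT1, was at 5.55 to 6.81 CPM in WT and 5.57 to 5.83 CPM in Scd2-m/-m (log2 fold change -0.10, 95% interval -0.35 to 0.16). Slc16a3 made up 91.9 ± 1.46% and 91.2 ± 1.52% of the summed Slc16a1 and Slc16a3 transcript per length in WT and Scd2-m/-m (SD, n = 3 each). The related carrier gene Slc16a7, outside the set, was not in this sum (means of 27.9 CPM in WT and 31.0 CPM in Scd2-m/-m).

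Among the hypoxia members, the oxygen-sensing machinery was lower in part. Hif1a, encoding the HIF-1 alpha subunit (chr12:73901375-73947530), was at 122, 113 and 109 CPM in WT and at 70.7, 84.3 and 90.1 CPM in Scd2-m/-m. The groups did not overlap, with Scd2-m/-m replicate 1 the lowest, and Hif1a fell by 0.49 ± 0.08 on the log2 scale (FDR = 0.00114). It shares 330 exonic bases with the antisense gene Gm15283, which had at most 42 counts in a library. Egln1, encoding the main prolyl hydroxylase PHD2, was at 45.2, 42.0 and 42.3 CPM in WT and at 35.6, 35.5 and 35.5 CPM in Scd2-m/-m. The difference was small but the libraries were tight, and Egln1 fell by 0.28 ± 0.06 (FDR = 0.006).

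Egln3, encoding the hydroxylase PHD3 and itself a sensitive HIF target (chr12:54178981-54203860), had the largest fold change of the 36 genes. It was at 4.29, 3.21 and 1.95 CPM in WT (213, 148 and 99 counts) and at 1.34, 0.816 and 1.17 CPM in Scd2-m/-m (75, 41 and 68 counts). All Scd2-m/-m libraries were below all WT libraries, at 35.2% of the WT mean, with a wide spread within WT. Egln3 fell by 1.5 ± 0.28 on the log2 scale (95% interval -2.10 to -0.89, FDR = 0.00263), and its share of the summed Egln1 and Egln3 transcript per length went from 8.86 ± 2.79% to 4.04 ± 0.939% (SD, n = 3 each). The related gene Egln2, outside the set, was not in this sum. Its means were 74.3 CPM in WT and 66.3 CPM in Scd2-m/-m, and it did not pass edgeR's test (FDR = 0.11). Epas1, encoding the HIF-2 alpha subunit, was low and overlapped, at 7.0 to 9.15 CPM in WT and 5.80 to 9.64 CPM in Scd2-m/-m (log2 fold change -0.05, 95% interval -0.43 to 0.33). Vhl, encoding the protein that marks hydroxylated HIF for degradation, was at 17.1 to 19.7 CPM in WT and 17.5 to 19.3 CPM in Scd2-m/-m (-0.03, 95% interval -0.20 to 0.15).

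The targets outside oxygen sensing gave 1 call in 7, against 17.5% of all genes, a share near the background. Ndrg1, a stress-responsive gene induced by hypoxia, was at 61.1, 59.5 and 66.7 CPM in WT and at 80.4, 76.2 and 77.5 CPM in Scd2-m/-m. Every Scd2-m/-m library was above WT, and Ndrg1 rose by 0.32 ± 0.06 on the log2 scale (FDR = 0.00289). P4ha1, a subunit of collagen prolyl 4-hydroxylase, was at 75.1, 61.0 and 59.8 CPM in WT and 56.4, 56.0 and 56.2 CPM in Scd2-m/-m. Its groups did not overlap, yet the log2 fold change of -0.22 (95% interval -0.39 to -0.04) did not pass the test (FDR = 0.0816) unless every gene with a count was tested (FDR = 0.0230) or WT replicate 3 was left out (FDR = 0.0373). The mitophagy receptors Bnip3 (0.09, 95% interval -0.12 to 0.29) and Bnip3l (0.10, -0.05 to 0.26), the mitochondrial Higd1a (-0.12, -0.37 to 0.13), Ankrd37 (0.15, -0.48 to 0.78) and P4ha2 (-0.07, -0.54 to 0.39) did not pass it either. Of these Ankrd37 (37 to 89 counts a library) and P4ha2 (80 to 128 counts) were measured with few counts. Ankrd37 also shares 57 exonic bases with Ufsp2 on the opposite strand, a gene with up to 2834 counts in a library, so its own level is uncertain.

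Beyond the 36 genes, related lists gave calls in either direction. Over all genes tested 17.5% were called, 9.65% higher and 7.84% lower, and no list was tested against these shares. Of 18 further glycolytic isozymes tested, 2 were higher and 2 lower. Ldhb, the lactate dehydrogenase subunit not in the set, went from 11.3, 8.85 and 9.33 CPM in WT to 5.59, 5.77 and 5.01 CPM in Scd2-m/-m (log2 fold change -0.85 ± 0.12), and Adpgk, an ADP-dependent glucokinase, was also lower (-0.45 ± 0.07), while the glucose transporter gene Slc2a3 was higher (0.29 ± 0.09). Of the 12 genes of pyruvate entry into mitochondria 0 were called by edgeR, DESeq2 or limma-voom, with 1 at an unadjusted p under 0.05 in each, and 3 with quality weights in limma-voom. In the pentose phosphate pathway 1 of 8 was higher (G6pdx, 0.20 ± 0.06) and 1 lower (H6pd, -0.47 ± 0.12). Of 10 genes of glycogen and gluconeogenesis 2 were higher and 1 lower, among them Gyg, the primer of glycogen synthesis (0.76 ± 0.09), and Pygl, which breaks glycogen down (-0.31 ± 0.06).

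Of 21 other hypoxia targets 4 were called, 1 higher and 3 lower, against 17.5% of all genes, a share near the background. Vegfa, the angiogenic growth factor, was at 101, 103 and 109 CPM in WT and 89.6, 86.2 and 84.7 CPM in Scd2-m/-m, without overlap, and fell by 0.27 ± 0.06 on the log2 scale (FDR = 0.00572). Jmjd6 (-0.28 ± 0.07) was lower and Rbpj (0.25 ± 0.06) higher. Among 8 regulators of HIF 0 were called by edgeR, DESeq2 or limma-voom, with 1 at an unadjusted p under 0.05 in each, and 1 (Rbx1) with quality weights. Of 8 transcription factors of glucose metabolism 1 was called, Myc, which was at 15.1, 10.1 and 8.52 CPM in WT and 7.06, 6.25 and 6.62 CPM in Scd2-m/-m and fell by 0.76 ± 0.19 (FDR = 0.0201).

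Markers of other cell states also differed between the genotypes. All 10 dividing-cell markers were higher in Scd2-m/-m (summed level 49.9 to 61.4 CPM in WT and 154 to 159 CPM in Scd2-m/-m, without overlap), as were 6 of 8 monocyte and progenitor markers (42.5 to 60.3 and 102 to 161 CPM). Of 10 macrophage markers 6 were lower and 1 higher. Neutrophil markers gave 5 higher and 1 lower of 8 (summed level 169 to 179 CPM in WT and 152 to 182 CPM in Scd2-m/-m), and dendritic cell markers 2 higher of 6 (1.31 to 1.91 and 2.21 to 3.41 CPM). The 2 dendritic calls were Ccr7 and Flt3. Flt3 was also among the 6 monocyte and progenitor calls, so it was counted in both lists. The neutrophil sum was mostly Csf3r, which fell from between 157 and 168 CPM to between 127 and 149 CPM, while the granule genes S100a8, S100a9, Ngp and Ltf rose from low levels (log2 fold changes 0.97, 1.65, 1.74 and 1.44). The monocyte and progenitor sum was likewise mostly Ccr2 (37.6 to 56.5 CPM in WT and 89.9 to 148 CPM in Scd2-m/-m). Erythroid markers gave 0 calls of 3 in edgeR, DESeq2 and limma-voom, 0 at an unadjusted p under 0.05 (1.55 to 2.14 and 2.03 to 2.69 CPM), lymphocyte markers 1 higher of 3 (52.2 to 117 and 78.3 to 111 CPM, mostly Ighm, with 1 marker at 0 in every library) and fibroblast and endothelial markers 1 lower of 6 (12.2 to 14.4 and 12.4 to 13.2 CPM). In bulk samples like these, fewer cells of a type and less RNA per cell cannot be told apart.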

How the data were processed

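Counts per gene of 6 mouse BMDM libraries (3 WT, 3 Scd2-m/-m, grouped by their labels) were used as the authors deposited them, whole numbers without normalization. The authors selected poly(A) RNA, sequenced it and used STAR to map the reads onto the mouse primary assembly of Ensembl release 76, taken here as GRCm38. The sources used here name no counting tool and do not say whether strand was used. A table of the authors' own comparison (fold changes, confidence limits, p-values and log2 CPM), made with edgeR and limma per the submitters' processing notes, was not used. The count table had 40757 entries, of which 276 repeats of a gene were removed. Counts of 1 to 20 were even in 60.9 to 64.9% of cases, and whether a count is a read or a fragment is not stated.

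The genotypes were compared with edgeR 4.0.16 (filterByExpr, TMM factors, robust glmQLFit, glmQLFTest; R 4.3.3, limma 3.58.1, statmod 1.5.0) over 14778 genes, with Benjamini-Hochberg adjusted p-values (FDR) over all of them and a call at an FDR below 0.05. The fit was tested on simulated data. Levels are CPM of the TMM-scaled library. Exonic lengths, coordinates and overlaps came from GENCODE M21 (GRCm38), and promoters from RefSeq. Isozyme shares were compared by exact permutation (scipy 1.17.1). DESeq2 1.42.0, limma-voom, other scalings and filters, a replicate block and left-out libraries were the alternatives. Replicates differed beyond counting noise (chi-square per gene 10.4 to 31.4), so none was a repeat of another library. All 36 genes were described, with up to 3 called genes of smallest p from each related list. The genes and lists were chosen with earlier results of these data known. Of the list of HIF regulators, Tceb1 and Tceb2 were not matched. Xist was at 658 to 842 CPM in all 6 libraries, Ddx3y, Kdm5d and Eif2s3y had no counts in any, and Uty was at 0 to 0.121 CPM in WT and at 0 in Scd2-m/-m.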

Additional observations from a re-analysis of the deposited data

How the results depend on the processing

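Of the 13 called genes, 10 kept their call under all 17 alternatives: Slc2a6, Hk2, Hk3, Pfkp, Aldoc, Pfkfb3, Hif1a, Egln1, Egln3 and Ndrg1. Slc2a1, Pfkl and Eno2 lost theirs in some, and no call changed direction. Over single left-out libraries, 10 to 15 genes were called (4 to 7 higher, 6 to 9 lower), 6 to 11 of them glycolytic (3 to 6 higher, 3 to 5 lower). With quality weights for the libraries in limma-voom, 17 were called, 8 of them higher, and 7 glycolytic genes were higher. Over all genes the calls then numbered 4507 against 2585, and fell to 1490 without WT replicate 2 and to 1440 without Scd2-m/-m replicate 2. The cause of these shifts was not tested. Other scalings moved the median log2 fold change of all genes by less than 0.1.

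Correlations of deviations across genes between same-numbered libraries were weak and not all of 1 sign (0.10, -0.05 and 0.08), and no label ties them, so the numbers were not taken as pairs. With the replicate number as a block in edgeR, 18 genes were called, 8 higher and 10 lower, 14 of them glycolytic (7 higher), and 2974 over all genes. Gapdh, Pgam1, Ldha, Pfkfb4 and Slc16a3 were the added ones. Replicate 1 and replicate 3 each correlated best with their own number and replicate 2 did not. Without replicate 1 of both genotypes, an alternative chosen after seeing the data, 15 were called (6 higher, 9 lower), and Eno2 was not among them (FDR = 0.263). The genotype difference in the share of counts on glycolytic genes ranged from -0.058 to 0.10 percentage points over left-out libraries, changing sign. For Gapdh, Pgam1 and Ldha the call thus depended on the model and on WT replicate 1.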
